A study of Mus musculus with 13 samples.

Results

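The microRNA family of miR-34 and miR-449 was read on 13 mouse arrays as every array name that starts with miR-34a, miR-34b, miR-34c or miR-449, which gave 11 of the 1122 mouse miRNA names on the array. The 11 names hold 6 leading arms (miR-34a-5p, miR-34b-5p, miR-34c-5p, miR-449a-5p, miR-449b and miR-449c-5p) and 5 opposite arms (miR-34a-3p, miR-34b-3p, miR-34c-3p, miR-449a-3p and miR-449c-3p). Of the 11, 2 passed the filter on dim signal and were tested, mmu-miR-449a-5p and mmu-miR-34a-5p (mmu stands for mouse and is left out from here on). The other 9 are described by their intensities only.

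The 12 arrays of primary C57BL/6 cells fall into 4 groups of 3 biological replicates, all sorted by flow cytometry. DN are CD4- CD8- thymocytes and DP are CD4+ CD8+ thymocytes, both from thymus. T-ALL, the acute lymphoblastic leukaemia of T cells, was taken at an early stage (ES) or a late one (LS). Its cells carried CD4 and CD8 as well, and were sorted out of the spleens of chimeras whose bone marrow had been transformed with N1ICD, the intracellular fragment through which Notch1 signals. M295 is 1 array of a cultured mouse T-ALL line derived from the same strain, so its values carry no replicate error. The promoter that drives N1ICD, the age of the animals and the criterion that separates the stages are not given in the sources used here. Because all leukaemia cells came from spleen and all thymocytes from thymus, disease and tissue cannot be told apart. In such bulk RNA, fewer cells that hold a miRNA and less of it per cell cannot be told apart either.

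MicroRNAs pair with target messages mainly through the seed, bases 2 to 8 of the mature strand, so miRNAs with the same seed share most predicted targets. The leading arms of miR-34 and miR-449 share a seed although they come from different loci. miR-34a, miR-34b and miR-34c are known as direct transcriptional targets of the tumour suppressor p53, and they repress cell-cycle and survival genes such as Cdk6, Ccne2, Bcl2 and Met, as well as Notch1 itself. miR-449 is known as an E2F1 target and, with miR-34b and miR-34c, as an abundant miRNA of multiciliated epithelium and testis. The question put to the arrays was at what level each member is present in normal thymocytes and in Notch1-driven leukaemia, and whether members with a shared seed move together.

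Mature sequences from RefSeq (GRCm38.p6) were matched by name for 9 of the 11 members, and the 4 leading arms among them are shown because their shared seed defines the family. The seed is in capitals, and each is written from its 5′ end.
miR-34a-5p: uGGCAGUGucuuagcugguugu
miR-34b-5p: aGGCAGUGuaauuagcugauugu
miR-449a-5p: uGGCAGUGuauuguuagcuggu
miR-449c-5p: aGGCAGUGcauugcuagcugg
No other of the 1679 mature names in the table carries this seed. miR-34c-5p and miR-449b, the 2 members not matched, have no mature entry there, so their seeds could not be read. miR-34a-5p lies at chr4:150068473-150068494 on the plus strand, miR-34b-5p at chr9:51103610-51103632 on the minus strand, miR-449a-5p at chr13:113037549-113037570 and miR-449c-5p at chr13:113036008-113036028, both on the plus strand. The miR-449a, miR-449b and miR-449c genes lie within the span of Cdc20b, a gene of the multiciliated cell programme, and miR-34b and miR-34c within the span of Btg4 and Hoatz, while miR-34a lies within the span of no other listed gene. Outside the seed the strands differ. miR-449a-5p is identical to miR-449c-5p at 18 of 22 positions of a global alignment, and to miR-34a-5p at 17 of 23. The opposite arms have other seeds, of which 1 is shared, by miR-34b-3p and miR-34c-3p:
miR-34b-3p: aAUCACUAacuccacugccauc
miR-34c-3p: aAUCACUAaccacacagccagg

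Of the seed family, miR-449a-5p and miR-34a-5p alone were well above background on most arrays. miR-449a-5p was so on 12 of 13 arrays and miR-34a-5p on 9. A miRNA counts as well above background here when 1 of its probes has the scanner software's mark on 50% or more of its kept spots. miR-449c-5p met the rule on 2 arrays, LS 1 and M295. The other 8 members met it on 0 arrays, which puts them under the detection limit of these arrays and does not show that they are absent. On the 12 primary arrays the background-subtracted intensity of miR-34b-5p stayed at or under 5.72, that of miR-34c-5p at or under 2.30, and that of miR-449b at or under 1.77. By count, 1 or 2 of the 11 members were above background on each of the 13 arrays.

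**Figure D1:**
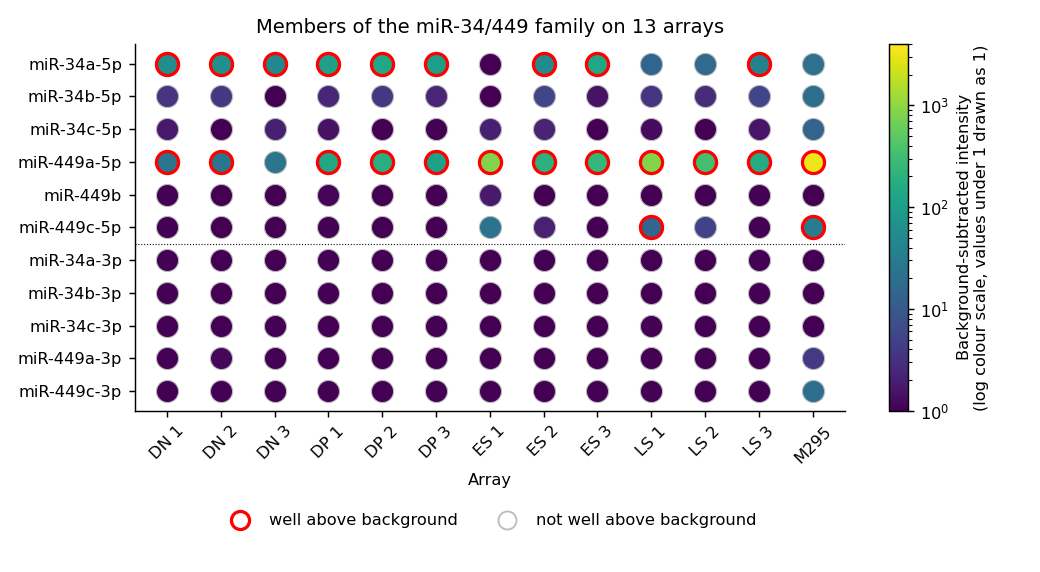
Background-subtracted intensity (colour, log scale) of the 11 members (rows) on the 13 arrays (columns), with the leading arms above the dotted line and the opposite arms below it. A red ring marks a signal well above background: miR-449a-5p carries it on 12 arrays, miR-34a-5p on 9, miR-449c-5p on 2 and the other 8 members on 0.

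Levels below are log2 scaled signals: the intensity of a miRNA divided by the 75th percentile, on that array, of the 108 mouse miRNAs that all 12 primary arrays read well above background, on the log2 scale, with a floor at -7.59. Levels are compared between arrays for 1 miRNA, not between miRNAs, because their probes differ. An adjusted p is from limma with Benjamini-Hochberg adjustment over 229 tested mouse miRNAs, and a miRNA was called under 0.05.

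miR-449a-5p was lowest in DN, higher in DP and highest in leukaemia. In DN its level was -5.94, -5.93 and -5.74 (DN 1 to DN 3), close to the limit of detection, with DN 3 not well above background. In DP it was -3.71, -3.63 and -3.90. The thymocyte groups did not overlap, and each was tight, with an SD of 0.12 in DN and 0.14 in DP (n = 3 each). In ES the level was -0.83 on ES 1, -3.12 on ES 2 and -3.12 on ES 3, and in LS it was -1.16, -2.53 and -3.33. All 6 T-ALL arrays lay above all 6 thymocyte arrays, which 15.3% of the tested miRNAs did in this direction. The leukaemias were far more spread than the thymocytes, with an SD of 1.32 in ES and 1.10 in LS, and 1 array of each stage (ES 1 and LS 1) stood well above the other two.

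Before scaling, the mean intensity of miR-449a-5p was 25.0 ± 0.27 in DN and 144.6 ± 35.2 in DP, and in leukaemia 424 ± 349 at the early and 450.0 ± 356 at the late stage (SD, n = 3 each). The intensities and the scaled levels put DN lowest, DP next and the leukaemias highest. Both of its probes gave that order of groups: A_54_P2743 read 15.5 to 17.6 in DN, 66.1 to 104 in DP and 92.8 to 498 in T-ALL, and A_54_P2744 read 33.1 to 34.4, 158 to 260 and 230 to 1199. The probes share the target strand, so they repeat the measurement on an array and are no replicates of a group.

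miR-34a-5p had another order, with DP above DN and LS lowest, and an ES group too spread to be placed. In DP its level was -4.08, -4.04 and -4.12, and in DN -4.71, -4.59 and -4.80, again without overlap and with an SD of 0.04 in DP and 0.11 in DN. In ES it was -7.59 on ES 1, the floor, -5.06 on ES 2 and -3.93 on ES 3, so that ES 3 was the highest and ES 1 the lowest of all 12 arrays. In LS it was -7.03, -6.84 and -5.47, and LS 3 alone was well above background. ES 1 had the least sensitive measurement, with a lowest signal above background of -6.18 against -8.16 to -7.32 on the other 11 primary arrays. Its miR-34a-5p was thus not measured, and -6.18 is no strict bound on it. On the same array miR-449c-5p read -5.97 and was not well above background. All 3 LS arrays lay below all DN and DP arrays, which 23.6% of tested miRNAs did against DN, and ES straddled both. The intensities before scaling were 56.7 ± 7.49 in DN and 114 ± 21.1 in DP, and in leukaemia 63.1 ± 73.8 at the early and 22.7 ± 12.05 at the late stage (SD, n = 3 each).

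**Figure D2:**
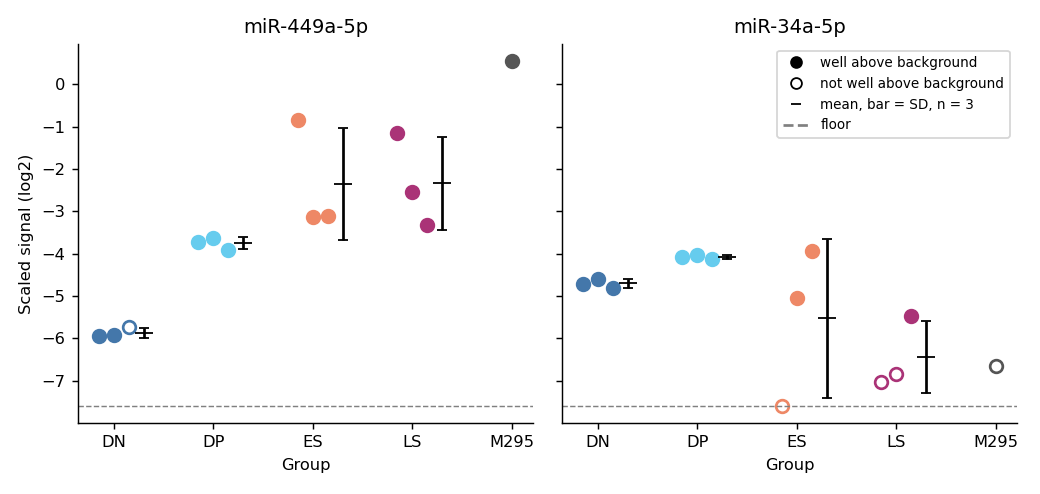
Log2 scaled signal of miR-449a-5p (left) and miR-34a-5p (right), a point per array, filled where the signal is well above background, with the mean and SD of each group of 3 beside the points and the floor dashed. All T-ALL arrays lie above the thymocyte arrays for miR-449a-5p, while for miR-34a-5p the ES arrays run from the floor at -7.59 to -3.93 and the LS arrays from -7.03 to -5.47.

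Leukaemia against thymocytes asked which members differ in T-ALL as a whole, ES and LS with equal weight against DN and DP with equal weight. The 2 tested members went in opposite directions. miR-449a-5p rose, from -4.81 ± 1.17 in thymocytes to -2.35 ± 1.09 in T-ALL (SD, n = 6 arrays each). The log2 fold change was 2.46 with an SE of 0.45 (95% interval 1.46 to 3.46, adjusted p = 0.00147). miR-34a-5p fell, from -4.39 ± 0.35 to -5.99 ± 1.40 (SD, n = 6 each), by a log2 fold change of -1.60 with an SE of 0.53 (95% interval -2.78 to -0.41, adjusted p = 0.0266). The groups overlapped through ES 3. miR-34a-5p met the filter on dim signal through DN and DP alone. It was above background on all 3 arrays of each, on 2 in ES and on 1 in LS. A fall in leukaemia is thus favoured by how it entered the test, and with no filter the fall was not called (adjusted p = 0.181). The normexp background correction used here and below adds a constant to every spot, which by itself narrows differences between dim signals. With it the differences were smaller, 1.44 for miR-449a-5p (adjusted p = 0.00890) and -0.52 for miR-34a-5p (adjusted p = 0.0111). In this comparison 31.4% of tested miRNAs rose and 25.8% fell, so 1 rise and 1 fall among 2 members is near the background. With slide as a block, the 12 arrays lying on 2 slides, miR-449a-5p was at 2.25 (adjusted p = 0.00389) and miR-34a-5p at -1.27 (adjusted p = 0.0608). Within slide 1 the values were 2.92 and -2.24, and within slide 2 they were 1.58 and -0.31. Slide 1 holds 1 array each of DN and DP and slide 2 holds 1 each of ES and LS, so within a slide the lone arrays are assumed to vary like the groups of 2 beside them.

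The call of miR-34a-5p depended on single arrays. It ended without any 1 of DN 1, DN 2, DP 1, DP 2, DP 3, LS 1 and LS 2, with adjusted p from 0.05002 to 0.0597, and without ES 1 its log2 fold change was -1.08. miR-449a-5p stayed called without any single array, with log2 fold changes from 2.08 to 2.71.

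Against DP, which share the CD4+ CD8+ surface type of the sorted leukaemia cells, miR-34a-5p fell in LS. The log2 fold change was -2.37 (SE 0.75, 95% interval -4.05 to -0.69, adjusted p = 0.0213, n = 3 against 3). In LS against DP 26.2% of the tested miRNAs fell, and 36.7% lay below DP without overlap. Having met the filter through DN and DP alone, miR-34a-5p was favoured to fall here, and with no filter it was not called (adjusted p = 0.160). On 2 of the 3 LS arrays miR-34a-5p was not well above background, so the size of the fall was not measured. With normexp background correction it was -0.85 (adjusted p = 0.00444). The call was lost when any 1 DP array, LS 1 or LS 2 was left out (adjusted p 0.0547 to 0.0718). With slide as a block the value was -2.05 (adjusted p = 0.0321), within slide 1 -2.86 and within slide 2 -1.39.

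miR-449a-5p was above DP on all arrays of both stages but was called in neither. Its log2 fold change was 1.39 in ES (SE 0.64, 95% interval -0.02 to 2.80, adjusted p = 0.0933) and 1.41 in LS (SE 0.64, 95% interval 0.00 to 2.83, adjusted p = 0.0750). Lying above DP without overlap was common, at 28.8% of tested miRNAs in ES and 41.5% in LS, while 21% and 32.3% were called higher. The labels number the replicates but state no pairing. DP and LS arrays of the same number deviated together in these data, and a block by number was chosen on that ground. With this block on those 6 arrays the LS difference was called (log2 fold change 1.41, SE 0.42, adjusted p = 0.0334). It was also called without ES 1 (adjusted p = 0.0204) and without LS 3 (1.91, adjusted p = 0.0321), and was 0.82 without LS 1. Without ES 1 the ES difference was 0.63. With slide as a block the differences were 1.18 in ES (adjusted p = 0.149) and 1.20 in LS (adjusted p = 0.125). Within slide 1 they were 1.74 and 1.87, and within slide 2 they were 0.65 and 0.44.

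For miR-34a-5p in ES the difference from DP was -1.45 (SE 0.75, 95% interval -3.13 to 0.23, adjusted p = 0.137). This value was set by which ES array was counted: it was -2.25 and called without ES 3 (adjusted p = 0.0171), -0.42 without ES 1, and 0.15 within slide 2, which holds ES 3 alone of its group. With values that are not above background raised to the lowest signal above background on their array, chosen after the data were seen, it was -0.98 (adjusted p = 0.145). The ES comparison thus gives no direction that holds across these arrays.

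**Figure D3:**
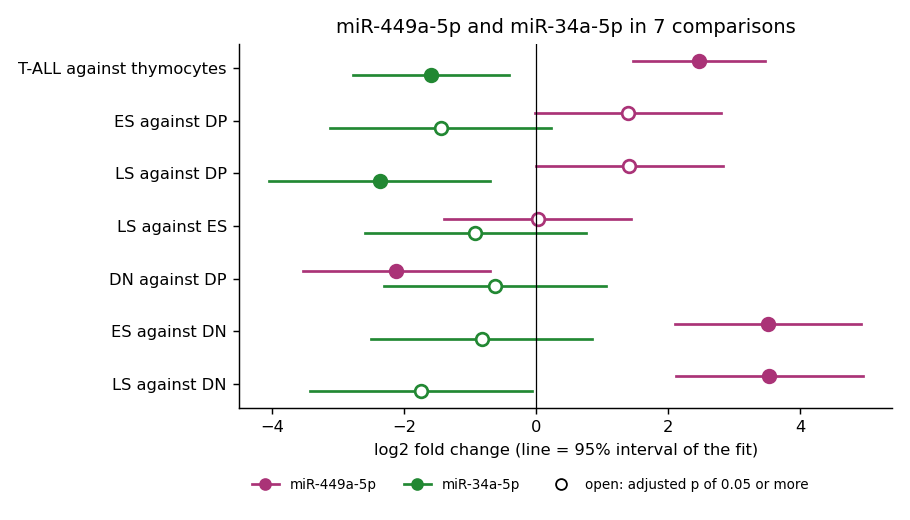
Log2 fold changes of miR-449a-5p and miR-34a-5p in 7 comparisons with their 95% intervals from the fit, filled where the adjusted p was under 0.05. miR-449a-5p was called in 4 comparisons (T-ALL against thymocytes, DN against DP, and each stage against DN) and miR-34a-5p in 2 (T-ALL against thymocytes and LS against DP).

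The normal stages differed in miR-449a-5p. It was lower in DN than in DP by a log2 fold change of -2.12 (SE 0.64, 95% interval -3.53 to -0.71, adjusted p = 0.0299), where 18.8% of tested miRNAs were called lower and 35.4% lay lower without overlap. miR-449a-5p met the filter on dim signal through DP, ES and LS and not through DN, so a lower DN was favoured. With no filter this difference was not called (adjusted p = 0.199). miR-34a-5p differed by -0.63 (SE 0.75, 95% interval -2.30 to 1.05, adjusted p = 0.567). That SE comes from a spread shared by all 4 groups, to which ES with an SD of 1.88 contributes most. Within slide 2, where ES has 1 array, the difference was -0.62. The call of miR-449a-5p ended without any 1 of the 6 thymocyte arrays (adjusted p 0.0646 to 0.0877). With slide as a block it was -2.12 (adjusted p = 0.0272), within slide 1 -2.23 and within slide 2 -2.07. It was -0.72 with normexp background correction (adjusted p = 0.305).

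Against DN the contrast in miR-449a-5p was largest. The log2 fold change was 3.51 in ES (SE 0.64, adjusted p = 0.0132) and 3.53 in LS (SE 0.64, adjusted p = 0.00420), and every leukaemia array lay above every DN array. As miR-449a-5p did not meet the filter on dim signal through DN, a rise over DN was favoured. With no filter neither stage was called (adjusted p = 0.128 in ES and 0.0506 in LS). The sizes of both differences are set against DN levels close to the limit of detection. With normexp background correction they were 1.798 in ES (adjusted p = 0.105, not called) and 1.81 in LS (adjusted p = 0.0296). Of the tested miRNAs 3.93% rose in ES and 25.8% in LS against DN, and 20.1% and 34.1% lay above DN without overlap. In ES the call ended without any 1 DN array (adjusted p 0.0614 to 0.0691), and in LS it held without any single array. The values were 3.30 and 3.32 with slide as a block (adjusted p = 0.0214 and 0.00787). Within slide 1 they were 3.96 and 4.10, and within slide 2 they were 2.72 and 2.51. miR-34a-5p was at -0.82 in ES (adjusted p = 0.467) and at -1.74 in LS (adjusted p = 0.104). The LS value was called without ES 1 (adjusted p = 0.0116) and without ES 3 (adjusted p = 0.0318), arrays that enter it only through the shared spread. The ES value was 0.21 without ES 1 and 0.77 within slide 2. The comparisons with DP share the DP arrays and those with DN share the DN arrays, so their values are not independent.

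Between the stages neither member was called. miR-449a-5p differed by 0.02 in LS against ES (95% interval -1.39 to 1.43, adjusted p = 1), and its sign turned with the scaling, within slide 2 and without ES 2, ES 3 or LS 1. miR-34a-5p differed by -0.92 (95% interval -2.60 to 0.76, adjusted p = 0.508). In LS against ES 2.62% of the tested miRNAs were called in either direction. Leaving out ES 1 gave -1.95 and leaving out ES 3 gave -0.12. Of neighbours in the order of levels, DN and DP did not overlap for either member, nor did DP and ES for miR-449a-5p, and DN against DP in miR-449a-5p was the only neighbouring difference called by the fit over 12 arrays.

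The 2 members divided the 6 T-ALL arrays in opposite ways. The arrays with the most miR-449a-5p, ES 1, LS 1 and LS 2, were the 3 on which miR-34a-5p was not well above background, and the 3 with the least, ES 2, ES 3 and LS 3, were those on which it was. Among these last 3 no opposite order was seen, as LS 3 was lowest both in miR-449a-5p (-3.33) and in miR-34a-5p (-5.47). Pearson's r was -0.84 (n = 6, exact permutation test, two-sided, p = 0.0417) and Spearman's rho was -0.77 (exact permutation p = 0.103). Without ES 1 and LS 1, the arrays farthest from the median of miR-449a-5p, r was -0.70 over 4 arrays. Unmeasured miR-34a-5p values were then raised to the lowest signal above background on their array. This moved ES 1 alone, to -6.18, as LS 1 and LS 2 already lay above theirs. After it r was -0.66 (exact permutation p = 0.172) and rho -0.60 (exact permutation p = 0.242). The relation thus did not hold at the 0.05 level once ES 1 was raised, and the values of LS 1 and LS 2 stayed unmeasured. The pattern was noticed in these values and was the 1 relation between members that was computed. The 3 arrays with high miR-449a-5p all lie on slide 1, as does ES 2. Within the 4 T-ALL arrays of slide 1 r was -0.87, and -0.55 with ES 1 so raised, and slide 2 holds 2 T-ALL arrays, too few for a value.

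**Figure D4:**
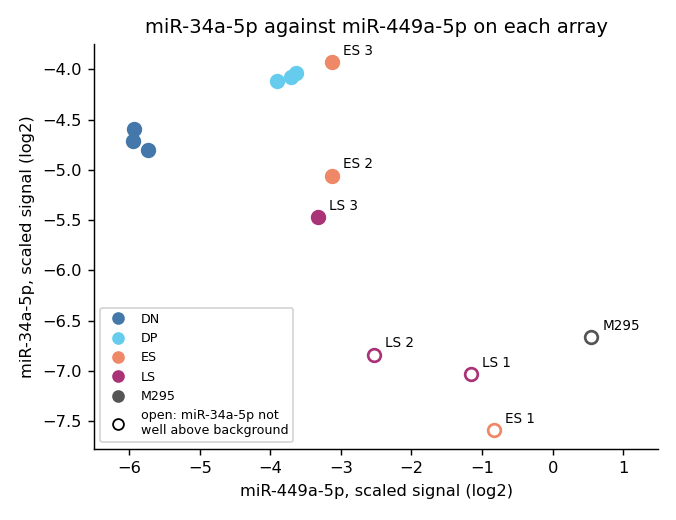
miR-34a-5p against miR-449a-5p (log2 scaled signals), a point per array coloured by group, open where miR-34a-5p is not well above background. ES 1, LS 1, LS 2 and M295 combine a higher miR-449a-5p with an unmeasured miR-34a-5p, and ES 2, ES 3 and LS 3 the reverse.

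The other leading arm with a signal, miR-449c-5p, was read by 4 probes that disagreed. Probe A_54_P2921 gave 0.80, 0.88 and -2.58 in DN and 3.97, 4.86 and 6.999 in DP, all at background. In ES it gave 59.8, 16.5 and 7.30, in LS 51.7, 19.5 and 8.90, and on M295 it gave 113. Of its 10 spots, 9 were well above background on LS 1 and 10 on M295, while ES 1 had 2, with an SD between spots of 55.8, and LS 2 had 1. Its high and low arrays are those of miR-449a-5p, whose strand is identical to miR-449c-5p at 18 of 22 aligned positions, and whether this probe also reads miR-449a-5p was not tested. The other 3 probes had 0 spots well above background on any array other than ES 1, where A_54_P2919 had 2. A level of miR-449c-5p in these cells therefore rests on 1 probe.

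**Figure D5:**
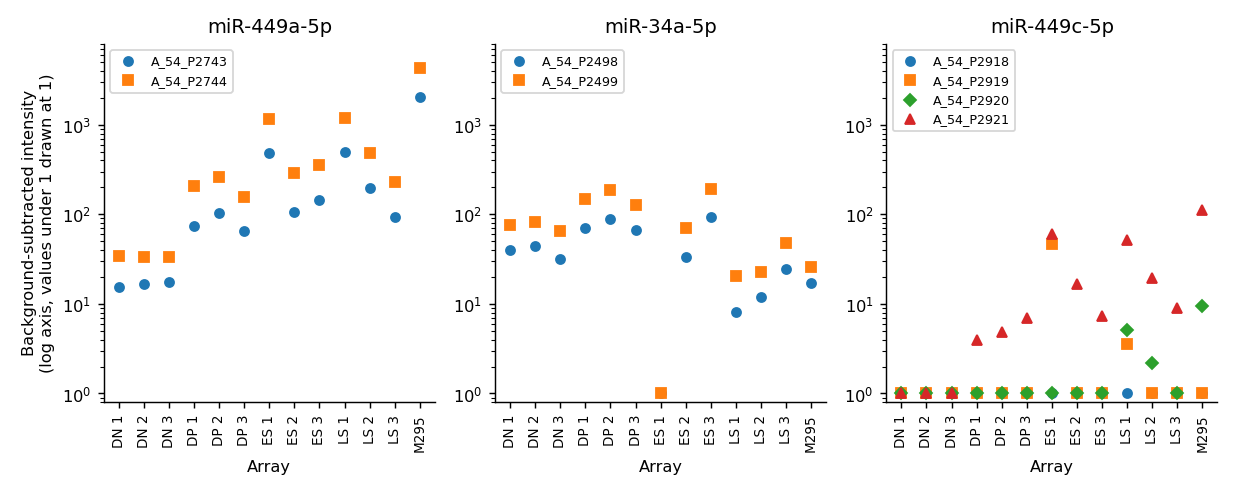
Background-subtracted intensity (log axis, values under 1 drawn at 1) of each probe of miR-449a-5p, miR-34a-5p and miR-449c-5p on the 13 arrays. Both probes of miR-449a-5p and both of miR-34a-5p show the same highs and lows, while of the 4 probes of miR-449c-5p A_54_P2921 reaches 113 on M295 and the others stay under 10 there.

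The line M295 had the most miR-449a-5p of all 13 arrays. Its level was 0.55, 2.61-fold above the highest primary leukaemia (ES 1, -0.83), at an intensity of 3200 against 161 to 848 on the 6 T-ALL arrays. Its miR-34a-5p was not well above background, at -6.67, within the T-ALL range of -7.59 to -3.93. 4 members that were not well above background on any array, M295 included, had their highest signals on M295. miR-34b-5p read 20.3 against at most 5.72 on the primary arrays, miR-34c-5p 13.9 against 2.30, miR-449c-3p 20.1 against 0.31 and miR-449a-3p 4.04 against 1.15. For miR-449c-3p, whose sequence is that of the opposite arm, 7 of the 18 kept spots of probe A_54_P00005725 were well above background on M295 and 0 on each primary array. The software's own detection mark, which is less strict, counted 5 members as detected on M295 and 2 or 3 on each primary array. As M295 is 1 array, these are values without a test.

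Other miRNAs that p53 is known to induce or to help process were read from a list of 24 array names: arms of miR-15a, miR-16, miR-22, miR-107, miR-141, miR-143, miR-145, miR-192, miR-194, miR-200c and miR-215. Of these 7 were tested. Of the 7, miR-16-1-3p, miR-194-5p and miR-192-5p met the filter on dim signal in DP alone, so that their lower values outside DP follow from how they entered the test, and they are not counted as support for a direction. Of the other 4, 2 fell against DP in each stage and 0 rose, miR-15a-5p (-0.69 in ES and -0.80 in LS) and miR-16-5p (-0.82 and -0.81). Over all tested miRNAs 25.3% fell in ES and 26.2% in LS. miR-15a and miR-16 are cotranscribed and restrain the cell cycle. The other two were not called: miR-22-3p was at -0.99 in ES and -1.87 in LS, and miR-107-3p at 0.47 and 0.36. With the percentile taken over all mouse miRNAs neither miR-15a-5p nor miR-16-5p was called lower in ES and 1 list member was called higher there, while both were called lower in LS.

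The same pair was lower in DN than in DP, miR-15a-5p by -0.98 and miR-16-5p by -0.92, where 18.8% of all tested miRNAs were lower, and neither was called lower with the percentile over all mouse miRNAs. In T-ALL against thymocytes miR-16-5p fell (-0.36, adjusted p = 0.0305), where 25.8% of all tested miRNAs fell, and it was not called lower under that scaling. This call of miR-16-5p ended without any 1 of DN 2, DN 3, DP 2, ES 1, ES 2, LS 1 and LS 3. Without ES 3, miR-15a-5p and miR-22-3p were called lower as well, where 154 of 229 tested miRNAs were called in either direction. In LS against ES, and in either stage against DN, 0 of the 7 tested list members were called.

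By the rule for likeness, the tested miRNAs whose levels over the 12 primary arrays correlated best with each member were read out, among 186 candidates well above background on at least 6 arrays. For miR-34a-5p they were miR-192-5p (r = 0.88), miR-26a-5p (0.84), miR-361-5p (0.83), miR-652-3p (0.83) and miR-140-5p (0.80). Over the 6 T-ALL arrays, among the 12 used to choose them, r ran from 0.73 to 0.93, with miR-34a-5p not well above background on 3 of the 6. Over the 6 thymocyte arrays it was 0.94 to 1.00 for 4 of the 5 and -0.95 for miR-652-3p. For miR-449a-5p they were miR-3470a (0.80), miR-721 (0.77), miR-669p-3p (0.72), miR-328-5p (0.72) and miR-5109 (0.68), and within T-ALL the highest of the 5 was 0.54 and the lowest -0.52. On M295, where miR-449a-5p was highest, miR-3470a was at -4.10 against a T-ALL mean of -2.64 and miR-721 at -3.92 against -2.68. The arrays share their group means, slides and floor, and these correlations are descriptions of 12 arrays.

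Markers of other cells were read beside these values. The 5 miRNAs listed for the T lineage (miR-181a-5p, miR-181b-5p, miR-150-5p, miR-142-3p and miR-142-5p) were well above background, 4 or 5 on every array, with miR-142-3p at the highest mean level in every group. Their summed scaled level (linear, in units of the array's 75th percentile) was 5.94 to 7.08 in DN, 11.3 to 13.6 in DP, 5.85 to 12.3 in ES with the highest on ES 3, and 6.24 to 8.44 in LS, and 2 of the 5, miR-181a-5p and miR-181b-5p, were called lower than DP in each stage. The sum was thus high on ES 3 and DP, the arrays with the most miR-34a-5p. On DN, next in miR-34a-5p, it lay below LS 1 (7.53) and LS 2 (8.44), where miR-34a-5p was not well above background. The part of these miRNAs' cells in the miR-34a-5p result was not tested. Of 10 epithelial miRNAs (2 of which, miR-141-3p and miR-200c-3p, are also on the p53-linked list), the class in which miR-449 is known to be abundant, 0 were above background on the thymocyte arrays, on ES 1 and on LS 1, the 2 primary arrays with the most miR-449a-5p. On ES 2, LS 2 and LS 3 there were 2, on ES 3 3 and on M295 5. Their summed scaled level was 0.019 to 0.026 in thymocytes, 0.012 to 0.082 in ES, 0.028 to 0.073 in LS and 0.232 on M295, and miR-203-3p, miR-205-5p and miR-200a-3p were at the floor on all arrays. ES 1 was the least sensitive array, with a lowest signal above background of -6.18. The mean level of miR-141-3p was -6.36 in ES and -6.17 in LS, so the 0 on ES 1 does not show absence. The myeloid pair miR-223-3p and miR-223-5p summed to 7.23 on ES 3, the T-ALL array with the most miR-34a-5p, and to at most 0.034 on every other array. The 3 erythroid miRNAs summed to 0.754 to 1.02 in DN and 0.012 to 0.022 in DP, to 0.016 to 0.389 in ES and 0.090 to 1.61 in LS. Of 8 endothelial and stromal miRNAs 1 was above background in DN and 0 elsewhere (sums 0.005 to 0.045). The part of such cells in the miR-34a-5p of ES 3 was not tested.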

How the data were processed

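Per the file headers, the authors read 1-colour Agilent arrays (Cy3) with Feature Extraction 10.7.3.1. The deposited scanner files hold background-subtracted intensity per spot, not scaled between arrays. The authors' deposited value table is on the log2 scale with a median of 3.29 in every column. Its values followed the log2 software total of the same array (Pearson r 0.988 to 0.999), its normalization is not given in the sources used here, and RMA, affy, MAS5 and GCOS stand in the submitters' processing notes with no role given. Outlier spots (4.03 to 8.60% per array) and controls were left out, the mean of each probe's spots and then of each miRNA's probes was taken, and arrays were scaled and floored as given above. No spot was saturated. A miRNA was tested when some group had it above background on each of its 3 arrays, which held for 229, and 115 to 257 were above background per array. limma 3.58.1 under R 4.3.3 fitted the 12 primary arrays with 1 mean per group, and was tested on simulated data. The labels state no pairing. From these data, replicate numbers were taken to pair DP with LS only (correlations of deviations 0.183 to 0.497, while in each other pair of groups at least 1 was under 0.1). Members and lists were chosen with earlier results of these data known. The named miRNAs were all members, the 5 most alike per tested member, and the tested ones of the p53-linked list, with values for those whose place in the test did not rest on DP alone.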

Additional observations from a re-analysis of the deposited data

How the results depend on the processing

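The array number limits precision to 3 per group, and miR-34a-5p was not well above background on 3 of 6 T-ALL arrays, nor was miR-449a-5p on 1 of 3 DN arrays. Log2 fold changes are given below with the adjusted p from limma. Within slide 1 calls ended for miR-34a-5p in T-ALL against thymocytes (-2.24) and LS against DP (-2.86) and for miR-449a-5p in T-ALL against thymocytes (2.92), ES against DN (3.96), LS against DN (4.10) and DN against DP (-2.23), where fewer arrays were fitted. Slide 2 holds 1 ES and 1 LS array, so that DN and DP alone give the spread, and its calls are not read. Within it miR-34a-5p was at -0.31 in T-ALL against thymocytes, and its sign turned in ES against DP (0.15) and ES against DN (0.77). It was at -1.54 in LS against ES, -0.62 in DN against DP and -0.77 in LS against DN. There miR-449a-5p was at 0.65 in ES against DP and turned in LS against ES (-0.21). With slide as a block miR-34a-5p in T-ALL was at -1.27 and not called. With no filter, calls ended at the same values for miR-34a-5p in T-ALL (-1.60) and LS against DP (-2.37) and for miR-449a-5p in ES against DN (3.51), LS against DN (3.53) and DN against DP (-2.12), where many more miRNAs were tested. With normexp background, where an added constant narrows differences between dim signals, miR-449a-5p lost its calls in DN against DP (-0.72) and ES against DN (1.798). In that setting miR-34a-5p was called in LS against DN (-0.72). Scaling over all mouse miRNAs moved the median of all tested miRNAs by up to 0.74 (LS against ES, downward), ended the call of miR-449a-5p in DN against DP (-1.82), turned it in LS against ES (-0.72) and called miR-34a-5p in LS against DN (-2.25). Quantile normalization turned miR-449a-5p in LS against ES (-0.081) and called miR-34a-5p in LS against DN (-2.24). The authors' deposited table called miR-34a-5p in ES against DP (-1.46), ended the call of miR-449a-5p in DN against DP (-1.64) and turned it in LS against ES (-0.13). For these the cause was not tested. Raising values not above background to the lowest signal above background on their array called miR-34a-5p in LS against DN (-1.74). With single probes, A_54_P2743 alone ended the call of miR-449a-5p in DN against DP (-1.89). Both settings were chosen after seeing the data. The replicate block over 12 arrays called miR-449a-5p in LS against DP (1.41, adjusted p = 0.0482) and changed no other call. The block on the DP and LS arrays alone, also chosen after seeing the data, called it as well (1.41), with 157 of 229 tested miRNAs called. The software's detection mark gave 2.31 members per array in place of 1.77.

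Leaving out 1 array at a time gave, for miR-34a-5p, -1.996 to -1.08 in T-ALL against thymocytes, -2.25 to -0.42 in ES against DP, -2.86 to -2.08 in LS against DP, -1.95 to -0.12 in LS against ES, -1.62 to 0.21 in ES against DN and -2.23 to -1.45 in LS against DN. For miR-449a-5p it gave 0.82 to 1.91 in LS against DP, -0.57 to 0.78 in LS against ES (turned without ES 2, ES 3 or LS 1), -2.20 to -2.06 in DN against DP and 2.75 to 3.89 in ES against DN.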
